A study of Sus scrofa with 10 samples.

Results

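Osteopontin (SPP1), matrix Gla protein (MGP), ectonucleotide pyrophosphatase/phosphodiesterase 1 (ENPP1) and growth arrest-specific 6 (GAS6) were followed in the aortic valve leaflets of female swine. All are tied to the control of calcium phosphate mineral in soft tissue. A probe set, the group of short probes that reads a transcript on the Affymetrix GeneChip Porcine Genome array, was taken for a gene where the array annotation gave exactly 1 symbol. Each of the 4 genes had 1 such probe set, so 4 of 6765 genes and 4 of 23999 probe sets are described. They were Ssc.101.1.S1_at for SPP1, Ssc.373.1.S1_at for MGP, Ssc.4913.1.A1_at for ENPP1 and Ssc.25172.1.S1_at for GAS6.

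Leaflets came from 3 groups: juvenile wild type (WT), labelled Rapacz Wisconsin Miniature Swine and RFH -/-, aged 3 months (3 arrays), juvenile Rapacz Familial Hypercholesterolemic (RFH) swine aged 3 months (3 arrays), and adult RFH swine aged 2 years (4 arrays). RFH swine have inherited high blood cholesterol on a normal diet, and all groups ate standard chow. The labels name no allele and give WT and RFH different breed names, so breed and hypercholesterolemia cannot be told apart. Adult WT arrays were not analysed here, so age and time with high cholesterol cannot be told apart either. The study compared adult with juvenile RFH and juvenile RFH with juvenile WT leaflets, and both comparisons use the same juvenile RFH arrays.

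Mineral deposits in the valve cusp are held back by secreted proteins and by inorganic pyrophosphate. Osteopontin is an acidic phosphoprotein of bone and of activated macrophages that coats mineral crystals and binds cells through integrins and CD44. MGP and GAS6 need vitamin K for the carboxylation of their glutamates: MGP binds calcium and bone morphogenetic proteins (BMPs), and GAS6 activates the receptor kinases TYRO3, AXL and MERTK. ENPP1 cleaves extracellular ATP to pyrophosphate, which blocks crystal growth and is in turn removed by the phosphatase ALPL.

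Values are deposited log2 expression values, in which a difference of 1 is a doubling of signal. Array medians lay between 6.96 and 7.03 and array maxima between 14.86 and 14.96. Changes were tested with limma over all 10 arrays, with Benjamini-Hochberg adjustment over all 23999 probe sets. A gene is said to have risen or fallen only where its adjusted p was under 0.05. The number of arrays, 3 or 4 a group, limits the precision. Nothing in the labels says whether each array is a separate animal, so p-values measure the spread between these samples, which may be technical. Valve interstitial cell and fibroblast markers, which the labelled tissue should hold, averaged 11.98 to 12.06 on the 6 juvenile arrays and 11.60 to 11.96 on the 4 adult arrays. Of the 10 measured, 1 rose (S100A4), 3 fell (COL3A1, PDGFRB and POSTN) and 6 were not called in adult against juvenile RFH leaflets. Over all genes 11.4% rose and 7.85% fell. Juvenile RFH replicate 2 stood apart: cardiac muscle markers averaged 8.88 there and 4.89 to 5.48 on the other 9 arrays. Endothelial markers averaged 8.40 to 8.77 on juvenile WT, 8.77 to 9.07 on juvenile RFH and 9.06 to 10.05 on adult RFH arrays, and adipocyte markers 5.21 to 5.47 on the juvenile and 5.98 to 7.18 on the adult arrays. Erythroid markers averaged 6.83 to 7.34 on juvenile WT, 7.56 to 8.48 on juvenile RFH and 6.28 to 7.24 on adult RFH arrays, and of 3 measured AHSP and ALAS2 fell in adult against juvenile RFH. Poly-A control transcripts averaged 7.12 ± 0.16 (SD, n = 4) in adult RFH, 6.32 ± 0.02 (SD, n = 3) in juvenile RFH and 6.54 ± 0.06 (SD, n = 3) in juvenile WT arrays, and the part of these differences in the results was not tested.

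SPP1 had the largest differences of the 4 genes. The 3 juvenile WT arrays read 9.97, 9.72 and 9.82. The 3 juvenile RFH arrays read 10.96, 11.05 and 12.13. The 4 adult RFH arrays read 13.07, 13.53, 12.14 and 11.90. All RFH arrays lay above all WT arrays, while the highest juvenile RFH array lay within the adult range. The group means were 9.84 ± 0.13 (SD, n = 3) in juvenile WT, 11.38 ± 0.65 (SD, n = 3) in juvenile RFH and 12.66 ± 0.77 (SD, n = 4) in adult RFH leaflets.

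SPP1 rose in adult against juvenile RFH leaflets by 1.28 (SE 0.39, 95% confidence interval 0.42 to 2.14, limma adjusted p = 0.0467), which is 2.43-fold. Of the 6765 genes 11.4% rose in the same comparison. The call lay close to the threshold, and adjusted p ran from 0.0195 to 0.168 over its 19 alternatives. It was lost when adult RFH replicate 1 (1.14, adjusted p = 0.101) or 2 (0.99, adjusted p = 0.0885) was left out. It was also lost without juvenile RFH replicate 1 (1.07, adjusted p = 0.168) or 2 (1.12, adjusted p = 0.137), and without juvenile WT replicate 1, 2 or 3 (adjusted p = 0.0686, 0.0698 and 0.0702). The increase had the same sign in each of these fits.

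Between the juvenile groups SPP1 differed by 1.54 (SE 0.42, 95% confidence interval 0.62 to 2.46), or 2.91-fold. No juvenile RFH array overlapped a WT array, and the gap between the groups was 0.98, where 26.3% of genes were likewise higher without overlap. This was the 50th largest difference in size among 23999 probe sets, but its limma adjusted p was 0.174. With array weights (adjusted p = 0.0183) or a fit of the 2 juvenile groups alone (adjusted p = 0.0362) it passed, and over its alternatives adjusted p ran from 0.0183 to 0.482. Without juvenile RFH replicate 3, the array with the highest SPP1 of its group, the difference was 1.17 (adjusted p = 0.398). Without juvenile RFH replicate 2, the array with cardiac transcripts, it was 1.71 (adjusted p = 0.338).

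SPP1 also varied more between arrays of a group than most genes. Its SD was larger than that of 99.2% of the 6765 genes in juvenile RFH and of 98.2% in adult RFH leaflets, against 73.4% in WT. The highest array was 1.19-fold above the lowest in WT, 2.25-fold in juvenile RFH and 3.10-fold in adult RFH. From WT to adult RFH the means differed by 2.82, or 7.07-fold, which is given as a description with no test. Every adult array exceeded every WT array by at least 1.93. For comparison, 28.9% of genes were higher in all adult RFH than in all WT arrays.

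**Figure D1:**
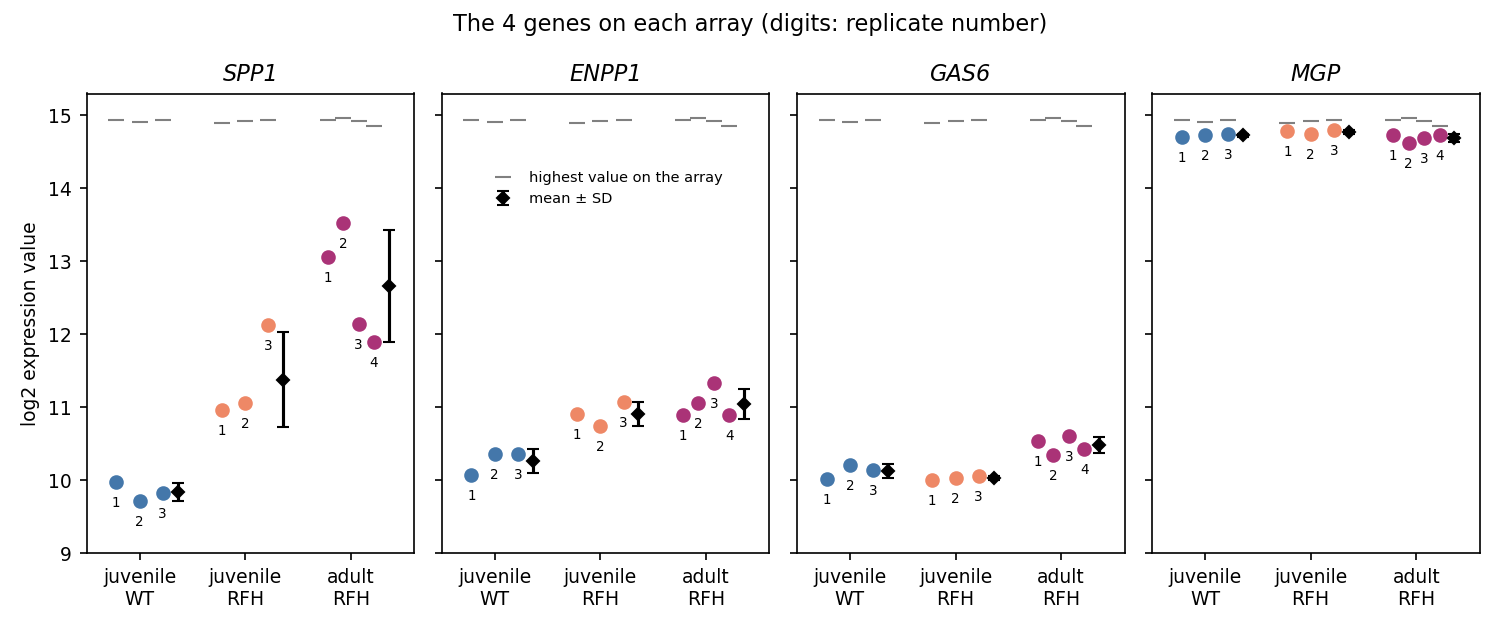
Log2 expression value of SPP1, ENPP1, GAS6 and MGP on each of the 10 arrays, with points numbered by replicate, diamonds and bars for group mean ± SD (n = 3, 3 and 4), and grey dashes for the highest value on each array. SPP1 climbs from 9.72 to 9.97 in juvenile WT to 11.90 to 13.53 in adult RFH leaflets, while MGP stays between 14.62 and 14.79, just under the top of the scale.

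ENPP1, the enzyme that makes pyrophosphate outside the cell, had higher values in both RFH groups than in WT. The juvenile difference did not pass in limma, and adult RFH against WT was not tested. It read 10.07, 10.36 and 10.36 in juvenile WT leaflets, 10.90, 10.75 and 11.07 in juvenile RFH, and 10.89, 11.06, 11.33 and 10.90 in adult RFH. The WT arrays formed the low group, and the RFH groups overlapped each other. Group means were 10.26 ± 0.17 (SD, n = 3), 10.91 ± 0.16 (SD, n = 3) and 11.04 ± 0.21 (SD, n = 4).

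Juvenile RFH exceeded juvenile WT for ENPP1 by 0.65 (SE 0.14, 95% confidence interval 0.33 to 0.96), or 1.56-fold, with a gap of 0.39 between the groups. Of all genes 26.3% were likewise higher without overlap. The limma adjusted p was 0.118, so the difference did not pass. It passed with array weights (adjusted p = 0.0159) and in the fit of the 2 juvenile groups alone (adjusted p = 0.0357), and over all its alternatives adjusted p ran up to 0.424. Without juvenile RFH replicate 2 the difference was 0.72 (adjusted p = 0.223). Adult and juvenile RFH differed by 0.14 (95% confidence interval -0.16 to 0.44, limma adjusted p = 0.528). The adult mean lay 0.78 above the WT mean, and all 4 adult arrays lay above all 3 WT arrays, as was the case for 28.9% of genes.

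GAS6, the ligand of TYRO3, AXL and MERTK, was higher in the adult leaflets. It read 10.02, 10.20 and 10.15 in juvenile WT and 10.01, 10.03 and 10.05 in juvenile RFH arrays. The adult RFH arrays read 10.54, 10.35, 10.60 and 10.42. The juvenile groups overlapped, and each adult array lay above each juvenile array. Of all genes 16.6% were higher in all adult than in all juvenile RFH arrays, and 28.9% higher in all adult RFH than in all WT arrays.

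The GAS6 means were 10.12 ± 0.09 (SD, n = 3) in juvenile WT, 10.03 ± 0.02 (SD, n = 3) in juvenile RFH and 10.48 ± 0.11 (SD, n = 4) in adult RFH leaflets. GAS6 rose from juvenile to adult RFH by 0.45 (SE 0.09, 95% confidence interval 0.25 to 0.65, limma adjusted p = 0.00804), or 1.37-fold. It passed in each of its 19 alternatives, with adjusted p up to 0.0337, and without juvenile RFH replicate 2 the change was again 0.45 (adjusted p = 0.0273). Between the juvenile groups the difference was -0.09 (95% confidence interval -0.31 to 0.12, limma adjusted p = 0.757). The juvenile RFH arrays were unusually close for GAS6, with an SD above that of only 3.07% of genes.

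MGP, the vitamin K-dependent inhibitor made by vascular and valve cells, had a probe set among the brightest on the array. It read 14.71, 14.73 and 14.74 in juvenile WT, 14.78, 14.74 and 14.79 in juvenile RFH, and 14.72, 14.62, 14.69 and 14.74 in adult RFH leaflets. The means were 14.73 ± 0.02 (SD, n = 3), 14.77 ± 0.03 (SD, n = 3) and 14.69 ± 0.05 (SD, n = 4). All 10 values lay within 0.17 of each other. The adult minus juvenile RFH difference was -0.08 (95% confidence interval -0.24 to 0.09, limma adjusted p = 0.519), and its sign turned to 0.071 after quantile normalization. Juvenile RFH minus WT was 0.04 (95% confidence interval -0.13 to 0.22, limma adjusted p = 0.874).

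The MGP probe set sat at the top of the scale, where a change can be compressed. By its mean of 14.73 it ranked 2 of 23999 probe sets, and on each array it lay 0.11 to 0.34 below that array's highest value. Among the 100 brightest probe sets the median size of the adult minus juvenile RFH difference was 0.09, against 0.18 over all probe sets. Their median SD within groups was 0.07, against 0.17. Of these 100, 12% were called in that comparison, against 16.8% of all 23999. The largest difference among them was 1.46. The means of these 100 ran from 13.78 to 14.92, so that difference need not hold at the level of MGP. Whether the MGP probe set was saturated was not tested, and the small differences read here hold for this probe set only. SPP1 lay 1.43 to 5.20 below the array maximum, and 3.71% of probe sets were brighter by mean. ENPP1 ranked 1566 and GAS6 ranked 2392 of 23999, well below the top.

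Set side by side, 2 of the 4 genes rose in adult against juvenile RFH leaflets, SPP1 and GAS6, and none fell. In the same fit 19.3% of the genes were called, 11.4% upward and 7.85% downward. In the juvenile comparison 0 of the 4 passed in limma, where 0.133% of genes and 0.117% of probe sets did. SPP1 and ENPP1 had unadjusted p under 0.05 there, at 0.00367 and 0.000983, as did 12.7% of all probe sets. Both were also higher without overlap between the juvenile groups, as were 26.3% of all genes, while 9.53% were lower without overlap. Between adult and juvenile RFH, GAS6 was higher without overlap, as were 16.6% of genes, and MGP was lower by a gap of 0.0041, where 13.3% of genes were lower without overlap.

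The 4 genes thus had different orders over the groups. For SPP1 the order was juvenile WT, juvenile RFH, adult RFH, with the RFH groups overlapping. A strict order without overlap between any groups was met by 4.98% of genes, and SPP1 did not meet it. For ENPP1 WT was lowest and the RFH groups did not differ beyond their spread. The step from WT to juvenile RFH did not pass in limma for SPP1 or ENPP1. For GAS6 adult RFH was highest and the juvenile groups did not differ beyond their spread. For MGP no neighbouring groups differed beyond the error of the fit.

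**Figure D2:**
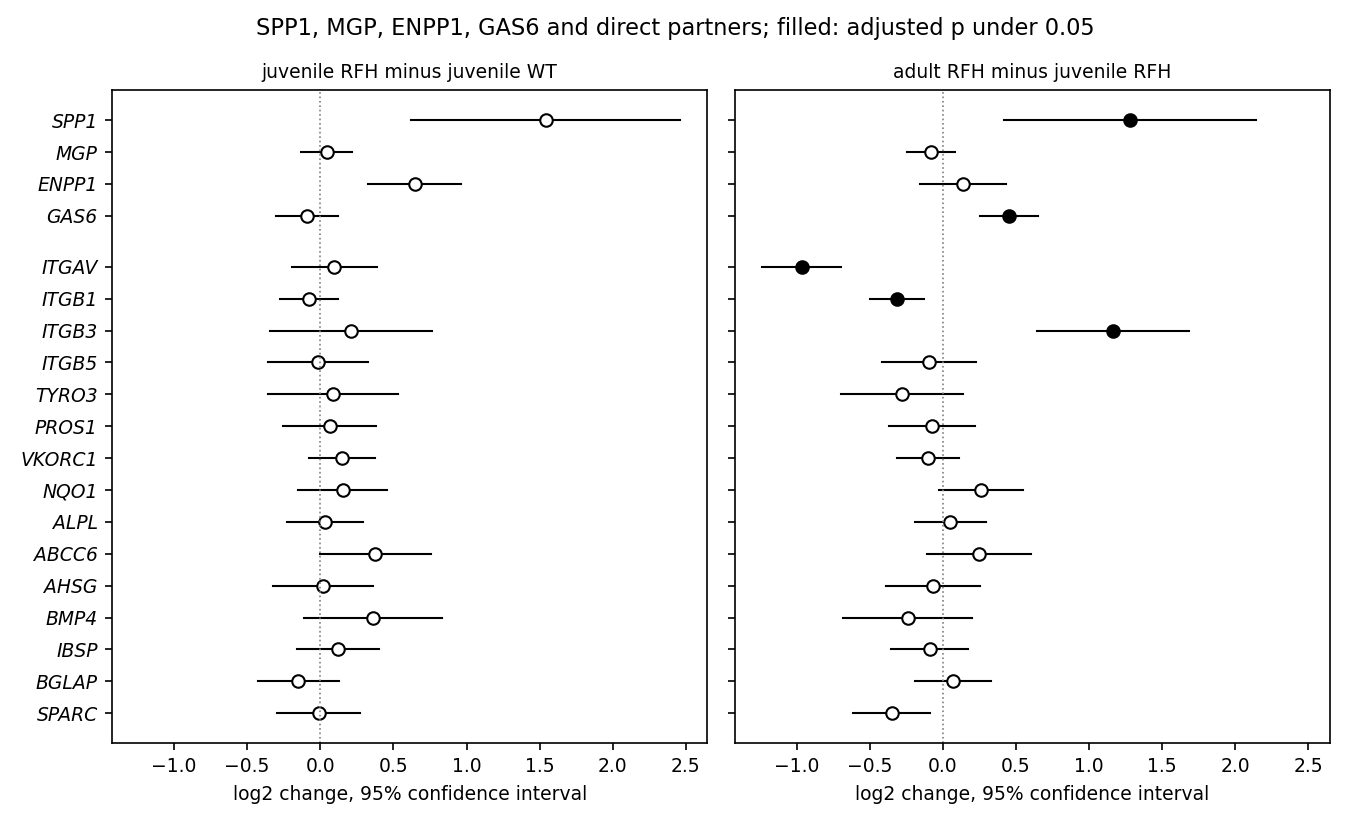
Log2 change with its 95% confidence interval for SPP1, MGP, ENPP1, GAS6 and their 15 measured direct partners, in juvenile RFH minus juvenile WT (left) and adult minus juvenile RFH (right), with filled points for adjusted p under 0.05. SPP1 lies to the right of 0 in both panels, ENPP1 in the left panel and GAS6 in the right panel, and among the partners ITGAV and ITGB1 lie left and ITGB3 right of 0 in the adult comparison.

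Among the cell surface partners of osteopontin, the integrin chains moved in opposite directions between juvenile and adult RFH leaflets. ITGAV, the alpha chain of the vitronectin receptor that binds osteopontin, ranged from 9.86 to 10.15 in juvenile RFH and from 8.75 to 9.22 in adult RFH arrays. It fell by 0.97 (SE 0.12, limma adjusted p = 0.000786). ITGB3, a beta chain that pairs with it, ranged from 8.13 to 8.65 and from 8.89 to 10.10, and rose by 1.16 (SE 0.23, limma adjusted p = 0.00844). Neither gene's adult arrays overlapped the juvenile RFH arrays, where 16.6% of all genes were higher and 13.3% lower without overlap. ITGB1, the common beta chain of many matrix receptors, fell by 0.31 (SE 0.08, limma adjusted p = 0.0278), a call that was lost without juvenile RFH replicate 1, 2 or 3 (adjusted p = 0.0817, 0.0661 and 0.0863). ITGB5, another partner of ITGAV, differed by -0.09 (limma adjusted p = 0.711). CD44, the other main osteopontin receptor, was not analysed here, for lack of a probe set annotated to it alone.

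Over the list of osteopontin receptors and processing enzymes, 11 of 18 genes were measured. In adult against juvenile RFH leaflets 3 rose, 2 fell and 6 were not called. The median change was -0.09, against 0.02 over all genes, of which 11.4% rose and 7.85% fell. Besides ITGB3, the genes that rose were ITGA5 and PLAU. ITGA5, the alpha chain of the fibronectin receptor, rose by 1.51 (SE 0.24, limma adjusted p = 0.00261) and its dimmer probe set by 0.85 (limma adjusted p = 0.0344). PLAU, the urokinase that activates plasminogen, rose by 1.50 (SE 0.21, limma adjusted p = 0.00125). In the juvenile comparison 0 of the 11 passed in limma and 0 had an unadjusted p under 0.05. Of all genes 0.133% passed there, and 12.7% of all probe sets had an unadjusted p under 0.05. The list median was 0.08, against 0.07 over all genes.

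SPP1 was read beside markers of macrophages, since these cells make it. The list mean of 14 measured macrophage markers was 8.95, 8.82 and 8.96 on the juvenile WT arrays and 9.22, 9.27 and 9.20 on the juvenile RFH arrays. On the adult RFH arrays it was 10.11, 10.27, 9.64 and 9.68. The adult arrays with the highest SPP1, replicates 1 and 2, also had the highest list means. The same 2 arrays were the highest of the adult group for adipocyte (7.18 and 7.07), endothelial (9.81 and 10.05) and lymphocyte markers (5.72 and 6.56), so this was shared by several cell type lists. Juvenile RFH replicate 3, whose SPP1 of 12.13 was highest in its group, had the lowest list mean of that group.

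Of the 14 macrophage markers 8 rose in adult against juvenile RFH leaflets, 0 fell and 6 were not called. Their median change was 0.77, against 0.02 over all genes, of which 11.4% rose and 7.85% fell. The 8 were CD14, TYROBP, LAPTM5, C1QA, FCER1G, ITGB2, CD86 and SPI1. The count was 5 without juvenile RFH replicate 1 or without replicate 3. In the juvenile comparison 0 passed in limma, 3 had an unadjusted p under 0.05, and 4 passed in the fit of the 2 juvenile groups alone. Of all genes 0.133% passed in limma there, and 12.7% of all probe sets had an unadjusted p under 0.05. In the fit of the 2 groups alone 3.63% of all probe sets passed. The list median in the juvenile comparison was 0.43, against 0.07 over all genes. Of the 14 markers 8 were higher in juvenile RFH without overlap, as were 26.3% of all genes. CD68 and CSF1R were not analysed here. More cells of a type and more RNA per cell cannot be told apart in whole leaflets, and the part of macrophage RNA in the SPP1 result was not tested.

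**Figure D3:**
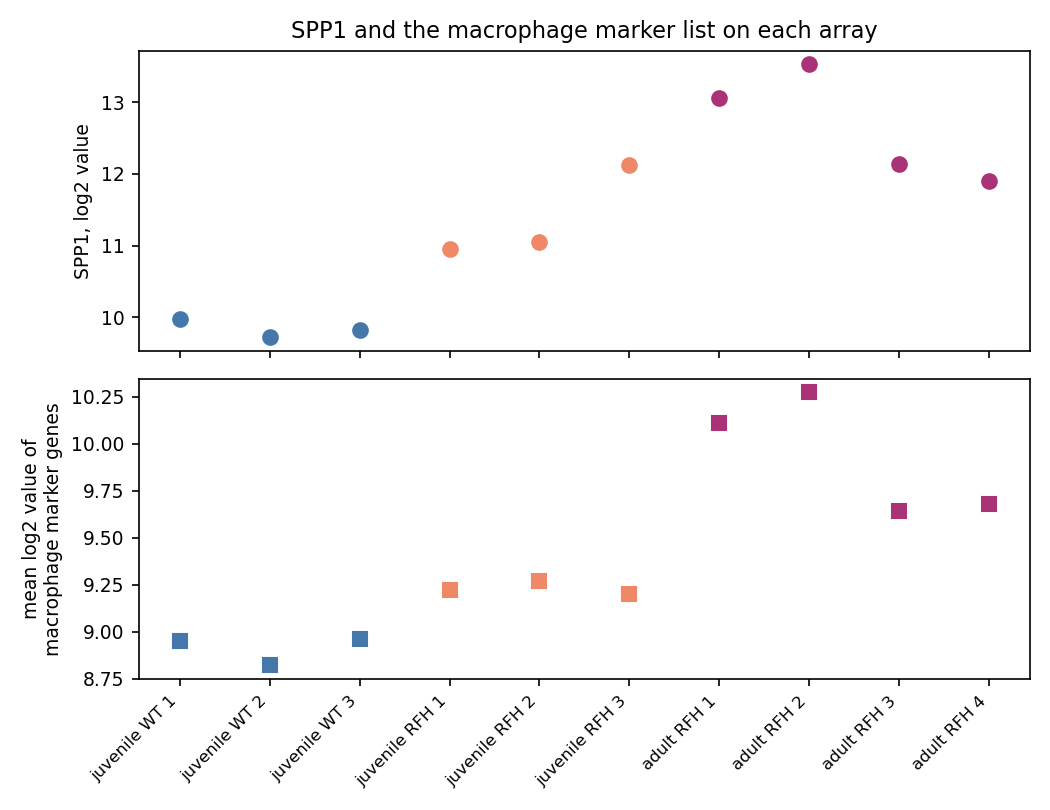
Log2 value of SPP1 (top) and mean log2 value of the 14 measured macrophage marker genes (bottom) on each of the 10 arrays, coloured by group. Adult RFH replicates 1 and 2 are highest in both panels, and juvenile RFH replicate 3 is high for SPP1 at 12.13 but not for the markers at 9.20.

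SPP1 lies in a chromosomal cluster of genes for acidic proteins of bone and tooth, and the neighbours were read in the gene order of the Sscrofa11.1 assembly. IBSP (bone sialoprotein), DMP1 (dentin matrix protein) and DSPP (dentin sialophosphoprotein) had mean values of 5.60, 5.44 and 5.07. Adult minus juvenile RFH differences were -0.09 for IBSP, 0.06 for DMP1 and 0.28 for DSPP, with limma adjusted p = 0.662, 0.723 and 0.163. None of these 3 passed in either comparison, and all lay below the array medians, where a change may not show. SPARCL1, a matricellular protein at the end of the cluster, fell in adult RFH leaflets by 1.00 (limma adjusted p = 0.00333). ABCG2, a membrane transporter on the other side, differed by -0.26 (limma adjusted p = 0.159). The increase in SPP1 was thus not accompanied by called increases in the measured genes beside it.

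Markers of bone matrix and of osteoblast differentiation were for the most part not called. Of 19 listed genes 10 were measured, and in adult against juvenile RFH leaflets 2 rose, 0 fell and 8 were not called. The median change was 0.07, against 0.02 over all genes, of which 11.4% rose and 7.85% fell. DLX5, a homeobox factor of osteoblast differentiation, ranged from 3.95 to 5.30 in juvenile RFH and from 6.18 to 8.44 in adult RFH arrays. It rose by 2.58 (SE 0.55, limma adjusted p = 0.0109). WT arrays lay between these groups, at 5.88 to 6.16. ATF4, a stress-responsive factor that also acts in osteoblasts, rose by 0.44 (SE 0.11, limma adjusted p = 0.0183). It no longer passed without juvenile RFH replicate 1 (adjusted p = 0.0722) or 2 (adjusted p = 0.0541), and its other probe set changed by 0.14 (adjusted p = 0.395).

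The late bone markers measured were not called. BGLAP, the bone Gla protein osteocalcin, averaged 6.03, 5.88 and 5.95 in juvenile WT, juvenile RFH and adult RFH leaflets, and IBSP averaged 5.55, 5.68 and 5.59. Both lay below the array medians, where a change may not show. Adult minus juvenile RFH differences were 0.07 for BGLAP (limma adjusted p = 0.734) and -0.09 for IBSP (limma adjusted p = 0.662). SPARC (osteonectin), a collagen-binding matrix protein, averaged 14.87, 14.86 and 14.51. It differed by -0.35 between adult and juvenile RFH (limma adjusted p = 0.0706) without overlap, where 13.3% of genes were likewise lower. Of its 20 alternatives 17 kept this result. It passed with trended robust variances (adjusted p = 0.0484) and without adult RFH replicate 3 or 4 (adjusted p = 0.0378 and 0.0425). By its mean this probe set ranked 3, next to that of MGP, where a change can be compressed. The dimmer SPARC probe set, at 7.29 to 7.65, differed by -0.31 (limma adjusted p = 0.0828). In the juvenile comparison 0 of the 10 listed genes passed in limma and 0 had an unadjusted p under 0.05, with a median of 0.02. Of all genes 0.133% passed there, and 12.7% of all probe sets had an unadjusted p under 0.05.

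The other genes of pyrophosphate handling and mineral inhibition were not called in either limma comparison. Of 17 listed, 6 were measured, and 0 of them had an unadjusted p under 0.05 in either comparison. The medians were 0.04 for adult against juvenile RFH and 0.04 for juvenile RFH against WT. Of all genes 19.3% were called in the adult and 0.133% in the juvenile comparison. In the latter 12.7% of all probe sets had an unadjusted p under 0.05. ALPL, the phosphatase that breaks pyrophosphate down, averaged 4.33, 4.37 and 4.42 in juvenile WT, juvenile RFH and adult RFH leaflets. These values lie far below the array medians of 6.96 to 7.03, where a change may not show. ABCC6, a transporter whose activity releases ATP, averaged 8.06, 8.43 and 8.68. Its difference between the juvenile groups was 0.38 without overlap (limma adjusted p = 0.399), where 26.3% of all genes were likewise higher. Between adult and juvenile RFH it was 0.25 (limma adjusted p = 0.329). The dimmer ABCC6 probe sets differed by 0.21 and 0.03 between the juvenile groups, with overlap (limma adjusted p = 0.598 and 0.953). Between adult and juvenile RFH they differed by 0.11 and 0.17 (limma adjusted p = 0.651 and 0.301). AHSG (fetuin-A), a mineral-binding serum protein made mainly by liver, averaged 6.04, 6.06 and 5.99, also below the array medians. The pyrophosphate exporter ANKH, the phosphate transporters SLC20A1 and SLC20A2, the adenosine-forming NT5E and the decoy receptor TNFRSF11B were not analysed here.

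ENPP1 belongs to a family of nucleotide and phospholipid phosphodiesterases. Of 20 listed ectonucleotidases and purine receptors 7 were measured, and 0 passed in limma in either comparison. Of all genes 19.3% passed in the adult and 0.133% in the juvenile comparison. The list medians were 0.16 for adult against juvenile RFH and 0.11 for the juvenile groups. The relative ENPP2 (autotaxin), which makes lysophosphatidic acid, averaged 8.80, 8.89 and 8.58 in juvenile WT, juvenile RFH and adult RFH leaflets. Its adult minus juvenile RFH difference was -0.31 (limma adjusted p = 0.118). P2RX4, an ATP-gated channel named after its values were seen, averaged 7.57, 8.21 and 8.56, the same order as ENPP1. Its differences were 0.64 between the juvenile groups and 0.35 between adult and juvenile RFH (limma adjusted p = 0.118 and 0.0948). In the fit of the 2 juvenile groups alone 1 gene of the list passed, as did 3.63% of all probe sets. At an unadjusted p under 0.05 stood ENPP2 and P2RX4 in the adult comparison. In the juvenile comparison P2RX4 did, as did 12.7% of all probe sets.

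MGP and GAS6 share the vitamin K cycle. Of 15 listed genes of this cycle and of other Gla proteins 8 were measured, and 0 passed in limma in either comparison, also at an unadjusted p under 0.05. Of all genes 19.3% passed in the adult and 0.133% in the juvenile comparison. In the latter 12.7% of all probe sets had an unadjusted p under 0.05. The list medians were -0.0008 for adult against juvenile RFH and 0.11 for juvenile RFH against WT. VKORC1, the reductase that recycles vitamin K and the target of warfarin, averaged 11.51, 11.66 and 11.56 in juvenile WT, juvenile RFH and adult RFH leaflets. NQO1, a quinone reductase, averaged 9.92, 10.07 and 10.33, and its adult minus juvenile RFH difference was 0.26 (limma adjusted p = 0.194). PROS1 (protein S), the other vitamin K-dependent ligand of the TYRO3 family, averaged 12.06, 12.13 and 12.05, with a difference of -0.07 (limma adjusted p = 0.764). The carboxylase GGCX was not analysed here.

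On the receptor side of GAS6, TYRO3 averaged 8.65, 8.74 and 8.46 and differed by -0.28 between adult and juvenile RFH (limma adjusted p = 0.348). AXL and MERTK were not analysed here. Of the 12 listed receptors, ligands and signalling partners 6 were measured, and in adult against juvenile RFH leaflets 3 rose and 3 were not called. The median change was 0.36, against 0.02 over all genes, of which 11.4% rose and 7.85% fell. The 3 were LGALS3, SOCS3 and SOCS1, each of which many other signals also regulate. LGALS3 (galectin-3), a lectin of macrophages and fibroblasts that can bind MERTK, ranged from 9.66 to 10.11 in juvenile RFH and from 11.68 to 12.68 in adult RFH arrays, and rose by 2.28 (SE 0.24, limma adjusted p = 0.000248).

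SOCS3, a feedback inhibitor of cytokine receptors, ranged from 4.30 to 4.50 in juvenile RFH and from 6.56 to 7.45 in adult RFH arrays. It rose by 2.61 (SE 0.17, limma adjusted p = 1.3e-05), and its WT arrays, at 4.42 to 4.64, lay with the juvenile RFH arrays. SOCS1, a related inhibitor, rose by 0.74 (SE 0.15, limma adjusted p = 0.00784) at its brightest probe set. Its other probe sets changed by -0.03 (adjusted p = 0.895) and 0.48 (adjusted p = 0.0787), and the mean of all its probe sets, the brightest included, changed by 0.40 (limma adjusted p = 0.0679). Between the juvenile groups 0 of these 6 genes passed in limma and 0 had an unadjusted p under 0.05, with a median of -0.06. Of all genes 0.133% passed there, and 12.7% of all probe sets had an unadjusted p under 0.05. Macrophage markers rose in adult against juvenile RFH leaflets, and their part in the LGALS3 and SOCS3 results was not tested.

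MGP binds BMPs, and genes of that pathway moved in both directions in the adult comparison. Of 24 listed genes 12 were measured, of which 2 rose, 3 fell and 7 were not called. The median change was -0.13, against 0.02 over all genes, of which 11.4% rose and 7.85% fell. The count of 5 called genes was 4 without adult RFH replicate 2 and 1 to 3 when any other single array was left out, lowest without juvenile RFH replicate 1, and ran from 1 to 6 over all 20 alternatives. SMAD1, the signal transducer of BMP receptors, ranged from 10.04 to 10.23 in juvenile RFH and from 9.28 to 9.68 in adult RFH arrays, and fell by 0.68 (SE 0.12, limma adjusted p = 0.0052). BAMBI, a decoy receptor, rose by 0.83 (SE 0.21, limma adjusted p = 0.0204), and by 0.77 at its dimmer probe set (adjusted p = 0.0102). Without juvenile RFH replicate 1 the BAMBI change was 0.67 (adjusted p = 0.09). BMP4, a ligand, differed by -0.24 between adult and juvenile RFH and by 0.36 between the juvenile groups (limma adjusted p = 0.455 and 0.536).

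The transcriptional regulators ID1, ID2 and ID3, targets of BMP signalling, did not move together. ID1 fell by 0.55 (SE 0.17, limma adjusted p = 0.0471) and ID2 by 0.58 (SE 0.16, limma adjusted p = 0.0335), while ID3 rose by 0.29 (SE 0.09, limma adjusted p = 0.0416). These calls lay near the threshold. Of the 10 fits that left out an array, those for ID1 and ID3 passed only without adult RFH replicate 2, with the highest adjusted p over their alternatives at 0.118 and 0.131. For ID2 the call was lost without adult RFH replicate 1, 2 or 4, juvenile RFH replicate 1 or 3, or WT replicate 3, with adjusted p up to 0.136. Between the juvenile groups 0 of the 12 genes passed in limma, with a median of 0.02, and BMPR1A, ENG and ID2 had an unadjusted p under 0.05. Of all genes 0.133% passed there, and 12.7% of all probe sets had an unadjusted p under 0.05.

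**Figure D4:**
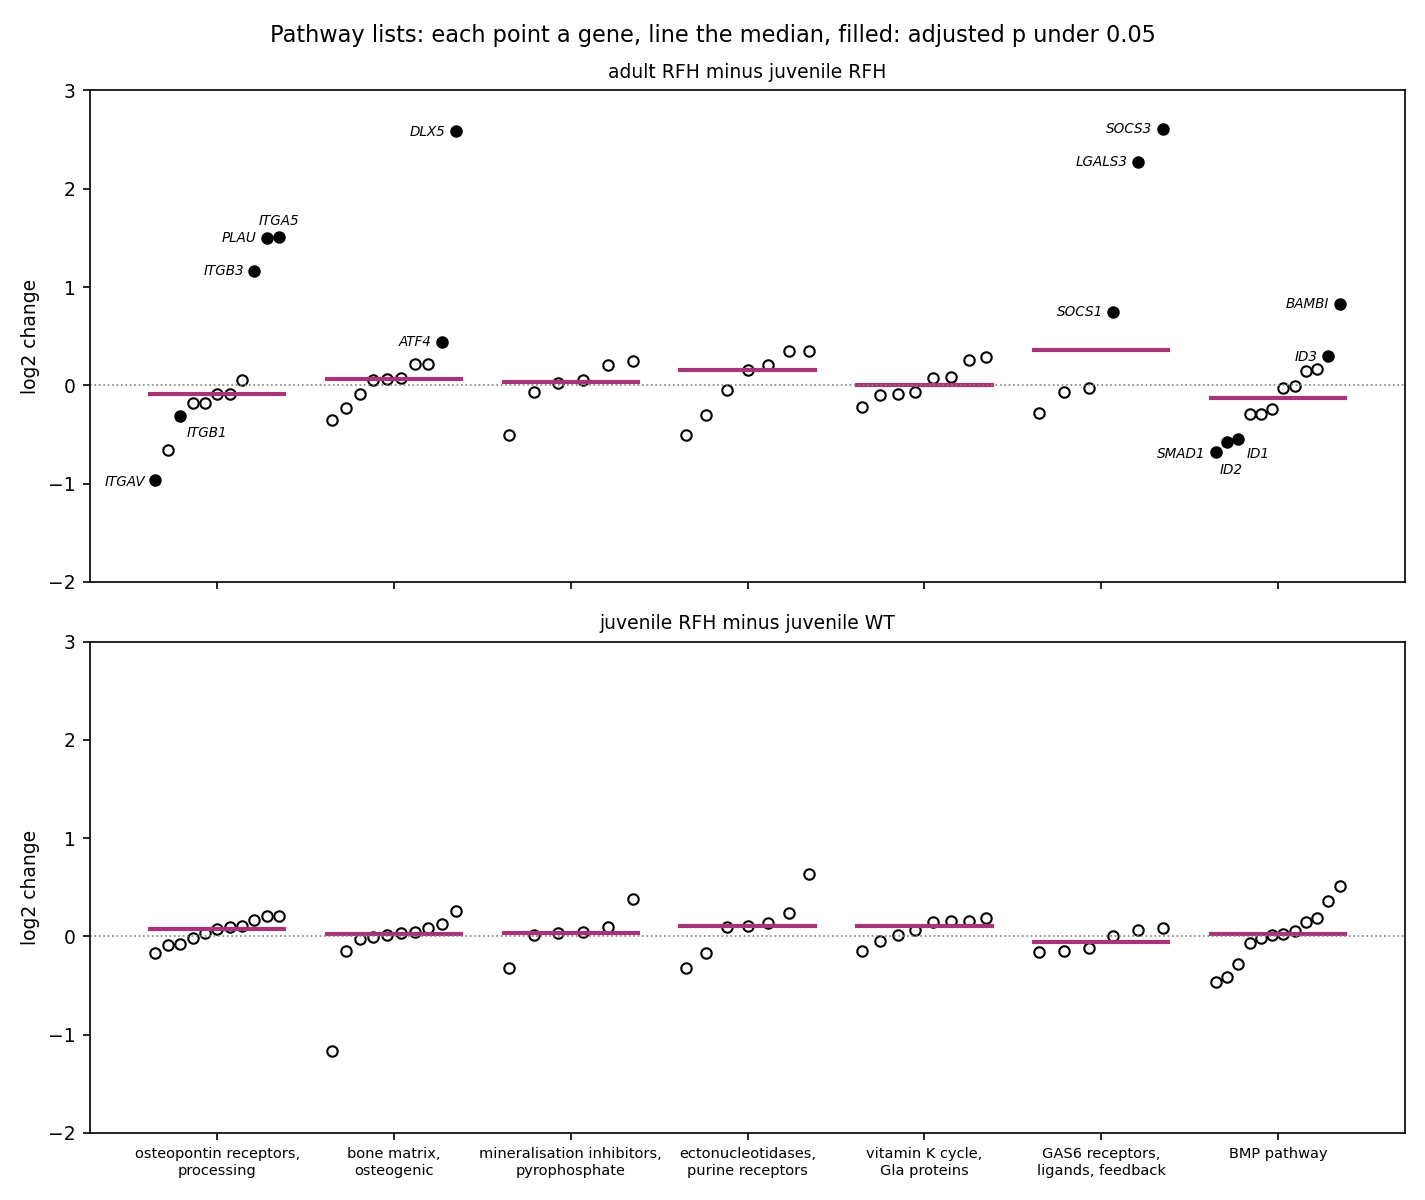
Log2 change of each measured gene of the 7 pathway lists in adult minus juvenile RFH (top) and juvenile RFH minus juvenile WT (bottom), with lines for list medians and filled points for adjusted p under 0.05. Filled points appear in the osteopontin, bone matrix, GAS6 and BMP lists of the top panel and none in the bottom panel.

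The genes whose values followed each of the 4 most closely over the 10 arrays are given as a description, since points share group means and arrays. For SPP1 they were VDAC2, a channel of the outer mitochondrial membrane (Pearson r = 0.985 over 10 arrays, 0.92 after group means were removed), SLC22A5, a carnitine transporter (0.98 and 0.89), and NOC2L (0.98 and 0.91). VDAC2 averaged 10.71, 11.40 and 12.12 in juvenile WT, juvenile RFH and adult RFH leaflets. For MGP they were CITED2, AGA and ENPP2, each at 0.94 over 10 arrays and 0.91 with group means removed. MGP itself spans only 0.17 in all, so these values describe small differences.

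For ENPP1 the closest genes were SKIV2L (r = 0.96 over 10 arrays and 0.82 with group means removed), EHD4 (0.95 and 0.73) and LMAN2 (0.94 and 0.69). For GAS6 they were PHF23 (0.98 and 0.85), SQOR (0.97 and 0.74) and TRIP10 (0.96 and 0.68). These r values are high by choice, as the highest among 6765 genes over 10 arrays. Pairs among the 4 genes were not chosen by r, so their values cannot be set against these. SPP1 and ENPP1 had r = 0.81 over the 10 arrays but 0.06 with group means removed, so within groups their values did not run together. SPP1 and GAS6 had 0.61 and -0.27, and ENPP1 and GAS6 had 0.53 and 0.56. MGP had -0.41 and -0.38 with SPP1, and -0.10 and 0.029 with ENPP1. With GAS6 its value turned from -0.49 over the 10 arrays to 0.49 with group means removed.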

How the data were processed

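Total RNA of 10 leaflet samples (3 juvenile WT, 3 juvenile RFH, 4 adult RFH) was amplified, biotin-labelled and hybridised, per the labels' protocols. The deposited values are log2 expression values, as read from the values. The submitters' processing notes name R 2.15.2. How background was removed, arrays were normalized and probes were summarised is not given in the sources used.

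Without its 124 Affymetrix controls the table held 23999 probe sets. Of these 10069 carry exactly 1 symbol, 198 several and 13732 none, and 9961 matched RefSeq with 0 symbols changed. The brightest probe set stood for a gene. Group means of all 10 arrays were fitted in R 4.3.3 using limma 3.58.1 (lmFit, eBayes, two-sided tests). Degrees of freedom were 7 residual and 3.57 prior. The fit was checked on simulated data.

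The 4 genes and the lists were chosen with earlier results of these data known. Named were the 4 genes, up to 4 called genes per list and direction with the smallest p, 24 direct partners where measured (15 were), and the 3 genes most correlated with each of the 4. The neighbouring genes of SPP1 and the named cell type markers fall outside this rule and were chosen after values were seen. Alternatives were quantile, median-centred and cyclic loess normalization, a filter on dim probe sets, a fit of 2 groups, trended robust variances, array weights, a replicate block, a floor of 4, each array left out, and averaged probe sets per gene, which alters none of the 4.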

Additional observations from a re-analysis of the deposited data

Results flagged for a closer look

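Of 43 named genes tested for a single adult RFH array far from the other 3, 2 were flagged. Chance gives about 1 in 20, so this number is near that of chance. TYRO3 read 7.87 in adult RFH replicate 2 and 8.64, 8.63 and 8.70 in the others, a gap of 0.909 of the group's range. ID1 read 12.14 in adult RFH replicate 2 and 11.44, 11.44 and 11.42 in the others, a gap of 0.973 of the range. Both exceeded the 95% limit of Dixon's test for 4 arrays. SPP1, MGP, ENPP1 and GAS6 had ratios of 0.28, 0.61, 0.62 and 0.30.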

How the results depend on the processing

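Of 152 alternative values for the 8 results on SPP1, MGP, ENPP1 and GAS6, 136 kept both direction and side of the threshold. The SPP1 rise in adult against juvenile RFH did not pass with array weights (1.06, adjusted p = 0.0851), 2 groups alone (1.28, 0.105), quantile normalization (1.23, 0.0542) or a floor of 4 (1.28, 0.102), and ran from 0.99 to 1.65 with an array left out. The juvenile SPP1 difference passed with array weights (1.63, adjusted p = 0.0183) and 2 groups alone (1.54, 0.0362), and ran from 1.17 to 1.75 with an array left out. The juvenile ENPP1 difference passed under both too (0.64, adjusted p = 0.0159, and 0.65, 0.0357), and ran from 0.55 to 0.72. MGP in the adult comparison turned to 0.071 with quantile normalization. The cause of these shifts was not tested.

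Called probe sets numbered 4025 for adult against juvenile RFH, 2308 with 2 groups alone, and 2243 to 4965 with an array left out (2243 without juvenile RFH replicate 1, 2280 without replicate 3). For juvenile RFH against WT they numbered 28, then 1171 with array weights, 872 with 2 groups alone, 6 with the dim filter, 10 with the floor, 17 with the replicate block, and 2 to 71 with an array left out. The share of adult calls that rose was 47.9%, and 53.2% with cyclic loess. Same-numbered arrays deviated together with correlations of only -0.16 to 0.19. This does not show that the numbers pair the samples, though so few arrays cannot exclude it. With the replicate block the adult count was 3922, SPP1 1.53 (adjusted p = 0.0415) and GAS6 0.47 (adjusted p = 0.0266).

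Signs turned for 13 results on direct partners and other named list genes, none of them called, mostly with an array left out. Under those fits the adult minus juvenile RFH difference ran from -0.246 to 0.094 for AHSG, -0.032 to 0.10 for ALPL, -0.047 to 0.18 for BGLAP, -0.20 to 0.022 for ITGB5 and -0.15 to 0.043 for PROS1. The juvenile RFH minus WT difference ran from -0.14 to 0.197 for AHSG, -0.054 to 0.12 for ALPL, -0.089 to 0.013 for ATF4, -0.038 to 0.28 for ITGA5, -0.056 to 0.028 for ITGB5, -0.0043 to 0.15 for PROS1, -0.026 to 0.0010 for SPARC and -0.022 to 0.16 for TYRO3. After centring it was 0.0014 for ITGB5 and 0.0042 for SPARC, SPARC was at 0 after quantile normalization, and ATF4 was at 0.0011 over the mean of its probe sets.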
